A study of Caenorhabditis elegans with 2 samples.

Results

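The second-tier peaks are 1403 sites of ChIP-seq enrichment that ranked just below the threshold of the study, out of 103934 candidate peaks in its ranked list (1.35%). The 2 libraries were biological replicates of 1 group. Both came from whole L4 larvae, the last larval stage of the nematode Caenorhabditis elegans, collected at 48 h after bleaching and synchronisation as starved L1 larvae. Strain RW12275 carried a CRISPR insertion of the TY1, EGFP and 3xFLAG tags at the gene Y75B8A.6 on chromosome III (allele st12275), and the tagged protein was precipitated with an antibody against GFP. An input file was shared by both libraries, and animals without the tag were not analysed here.

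The members were chosen by their measured rank. A second-tier peak had a score of at least 540 and below 830 in the ranked list of both libraries, lay on a nuclear chromosome and overlapped none of the 933 thresholded peaks, whose lowest score was 830. The score is the authors' transform of the irreproducible discovery rate (IDR), so the band ran from a global IDR of 0.0500 at its lower end to 0.0100 at its upper end. In the ranked list 1408 peaks fell in the band, of which 5 overlapped a thresholded peak and were left out. Score, IDR and peak signal describe how the members were picked and are given without a test. Peaks share the 2 libraries and are not replicates, so each interval below is a 95% interval for counting error only.

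In ChIP-seq, a protein is crosslinked to DNA in living animals, precipitated with its DNA, and the DNA is sequenced, so that sites of contact show as peaks of reads. IDR compares the ranks of peaks between paired peak lists: peaks with repeatable ranks receive a low rate, and a threshold on it separates those that are kept from those that are not. RNA polymerase II transcribes protein-coding genes from promoters around their starts, while RNA polymerase III transcribes tRNA genes from control elements inside the gene.

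The DNA under 6 of the strongest second-tier peaks shows the range of places where they stood: a protein-coding promoter, a snoRNA inside an intron, a tRNA gene, and intergenic DNA. Each sequence runs for 50 bases on either side of the summit, the point of highest signal, on the plus strand of the RefSeq genome WBcel235 (ce11), and is named by its gene or by the gene with the nearest start. Capitals mark 3 words of 6 bases or their reverse complements: the word ACCACT, then the word CACACA, then the word GAGAGA, which are described at the end.
ftt-2: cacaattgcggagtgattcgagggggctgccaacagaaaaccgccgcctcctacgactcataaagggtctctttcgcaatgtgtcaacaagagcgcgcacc
T04A8.17: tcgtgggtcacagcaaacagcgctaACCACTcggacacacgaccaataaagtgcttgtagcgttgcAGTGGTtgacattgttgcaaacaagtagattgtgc
Y110A2AL.t1: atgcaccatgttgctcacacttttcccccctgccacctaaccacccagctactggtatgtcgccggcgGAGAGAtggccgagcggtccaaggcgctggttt
21ur-14912: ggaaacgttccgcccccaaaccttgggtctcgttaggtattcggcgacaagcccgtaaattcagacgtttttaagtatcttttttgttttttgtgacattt
fat-2: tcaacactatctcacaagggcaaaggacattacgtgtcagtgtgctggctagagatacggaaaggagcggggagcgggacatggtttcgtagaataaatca
Y25C1A.8: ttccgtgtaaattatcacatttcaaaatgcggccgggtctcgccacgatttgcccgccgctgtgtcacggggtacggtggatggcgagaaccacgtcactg

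The windows lie at chrX:11605893-11605993 (ftt-2), chrIII:4689793-4689893 (T04A8.17), chrII:2860275-2860375 (Y110A2AL.t1), chrIII:5506499-5506599 (21ur-14912), chrIV:13322607-13322707 (fat-2) and chrII:3077061-3077161 (Y25C1A.8). The window at the leucine tRNA gene Y110A2AL.t1 had the highest GC content of the 6, at 60.4%, and the window nearest to the piRNA gene 21ur-14912 the lowest, at 42.6%. The summits of the first 3 peaks stood within 100 bp of a noncoding gene start, and that of Y25C1A.8 stood 152 bp upstream of a protein-coding start. The other 2 were more than 1000 bp from the nearest start.

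Every second-tier peak was 256 bp wide with its summit at the midpoint, and 914 of the 933 thresholded peaks had the same width. The signal was assigned to each peak by the authors' caller on an unstated scale, and it spanned 2.14 to 70.6 among second-tier peaks (median 43.5). Thresholded peaks spanned 2.57 to 302 (median 61.7). Signals of the tiers overlapped at the edges: 7 second-tier peaks lay above the thresholded median, and 59 thresholded peaks lay below the second-tier median. At the upper edge, 3 members just inside had signals of 50.8, 46.6 and 45.5, and 3 peaks just outside (scores 830, 830 and 831) had 46.5, 41.7 and 48.0. At the lower edge, 3 members with a score of 540 had signals of 43.3, 42.3 and 40.0, and 3 peaks just outside had 43.5, 42.4 and 42.3. Where scores tied, the peaks of highest signal were taken, so these are no sample of the peaks at an edge. Among them the signals on either side of both edges overlapped.

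The strongest second-tier peak, with a signal of 70.6, stood 524 bp upstream of ftt-2 (X 11605815 to 11606070), which encodes a 14-3-3 protein. The start of the ncRNA gene F52D10.7 was nearer, at 46 bp, so the peak cannot be assigned to either gene. The signal of this peak was 51.3 in the ranked list of replicate 1 and 20.6 in that of replicate 2. The second strongest (66.8) stood 72 bp upstream of the snoRNA gene T04A8.17, inside an intron of ppat-1 (III 4689715 to 4689970), with 33.6 and 34.3 in replicates 1 and 2. The third (66.8) stood 17 bp upstream of Y110A2AL.t1 (II 2860197 to 2860452), with 39.4 in replicate 1 and 28.0 in replicate 2. Signals of different lists are not on a shared scale, and within each replicate list these 3 values lay at or above the median of the second-tier peaks, except 20.6 for ftt-2 in replicate 2.

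Other promoters among the 20 strongest members were those of aex-1 (61.7), which acts in the defecation motor program, and mboa-2 (61), a membrane-bound acyltransferase. The promoters of mrps-7, a protein of the mitochondrial ribosome, and Y57G11C.3 shared a summit with a signal of 60.9. Promoter summits were also found at Y25C1A.8 (61.4), kel-20 (61.2) and K07E3.1 (60.6). Coding exons held the summits in nono-1 (63.5), which encodes an RNA-binding protein, in vha-8 (58.5), a subunit of the vacuolar proton pump, and in acs-19 (58.3), an acyl-CoA synthetase family gene. A summit in the 3′ UTR of the homeobox gene ceh-60 had a signal of 60.6. Of the intergenic summits, that of signal 62.2 was nearest to fat-2, a fatty acid desaturase gene, at 1216 bp upstream, and another (59.1, V 14848629 to 14848884) stood 1344 bp upstream of ret-1, a reticulon gene.

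A ranked peak of each replicate overlapped 1293 of the second-tier peaks (92.2%), and none lacked an overlapping peak in both. Among thresholded peaks 908 (97.3%) had a ranked peak in both replicates. Few members passed the threshold in a replicate taken alone: 27 (1.92%) overlapped a thresholded peak of replicate 1, 20 (1.43%) one of replicate 2, and 0 overlapped one in both, against 158 of the 933 thresholded peaks. The median signal of members was 23.4 in the list of replicate 1 and 21 in that of replicate 2, and the medians of thresholded peaks were 34.5 and 31.0. Of the members present in both lists, 1062 (82.1%) scored below 540 in each. These lists are built from the same reads as the series list, so the overlap is no independent evidence.

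**Figure D1:**
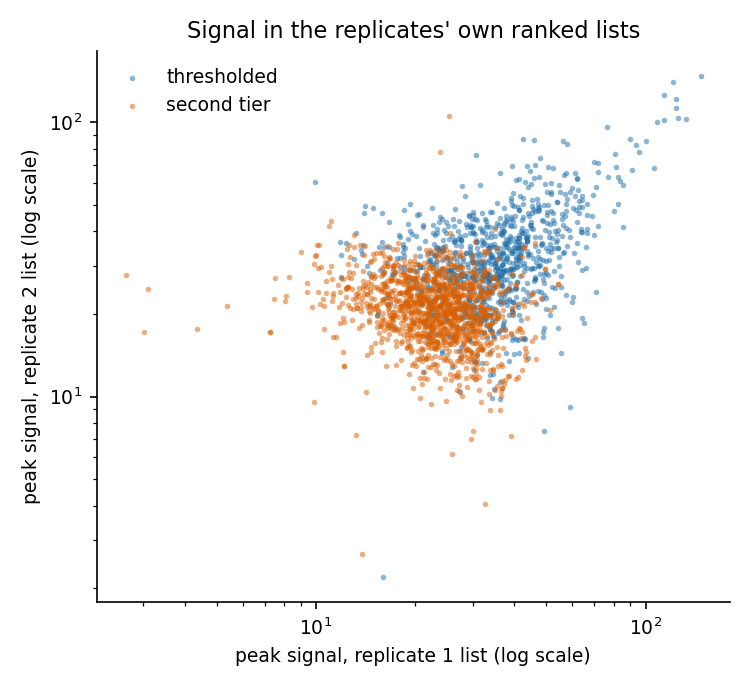
Signal of each peak in the ranked list of replicate 1 (x axis) and of replicate 2 (y axis), both on log scales in the caller's units, for peaks found in both lists. Second-tier peaks (orange) centre on medians of 23.4 and 21 and overlap the lower part of the thresholded peaks (blue), which centre on 34.5 and 31.0.

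The ranked list also gives the signals of the paired peaks that IDR compared. For 1333 members the peak's own signal was at or above both, with a median of 43.8 against medians of 19.8 for the smaller and 24.8 for the larger paired signal. For the other 70 members (4.99%) the peak's own signal was below the larger paired signal, with medians of 9.75 and 25.1. A stronger ranked summit lay within 500 bp of 60 of these 70, but of 51 of the 1333 (3.83%). Of the thresholded peaks 28 (3.00%) were below a paired signal. The conservative thresholded list of the series, which the authors built from another ranked list, held 130 of the second-tier peaks (9.27%) and 618 of the thresholded peaks (66.2%).

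Second-tier summits stood more often in coding exons and less often in intergenic DNA than thresholded summits, while promoters were the most frequent class in both tiers. Promoter windows reached 1000 bp upstream and 300 bp into the transcript from each protein-coding start, and the other classes were assigned to the remaining summits. Promoters held 543 second-tier summits (38.7%, interval 36.1 to 41.3) and 385 thresholded summits (41.3%, 38.1 to 44.5), while promoter windows cover 28.0% of the nuclear genome. The difference, second tier minus thresholded, was -2.56 percentage points with an interval of -6.62 to 1.48, which includes 0. It was -6.37 points (-10.7 to -2.01) in the conservative lists and -5.41 points (-9.97 to -0.863) without summits near tRNA, snoRNA and snRNA genes, where the interval excludes 0. Its sign turned, with intervals that include 0, in the lists of replicate 1 alone (0.749 points, -6.07 to 7.51) and with promoter windows of 2000 to 500 bp (0.574 points, -3.52 to 4.68).

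Coding exons outside promoters held 280 second-tier summits (20%, interval 17.9 to 22.1) and 66 thresholded summits (7.07%, 5.51 to 8.91), a difference of 12.9 points (10.2 to 15.5). With the same score bands in each replicate's own lists the difference was smaller, 5.51 points (1.03 to 9.76) in replicate 1 and 6.23 points (2.30 to 10.1) in replicate 2. The second-tier share was near the share of the genome in that class, 18%, and the thresholded share was below it. Intergenic DNA held 279 second-tier summits (19.9%) and 260 thresholded summits (27.9%), a difference of -7.98 points (-11.6 to -4.45), with 25% of the genome. In the lists of replicate 2 alone the intergenic difference of -4.96 points (-11.4 to 1.45) included 0. Introns held 16.7% and 20.6%, a difference of -3.90 points (-7.19 to -0.695), with 26.3% of the genome. Without the summits near tRNA, snoRNA and snRNA genes in either tier, the intron difference was -0.291 points (-3.70 to 2.93), an interval that includes 0, and in either replicate's own lists its sign turned. The 3′ UTR share was 4.28% (60 summits) against 3.00% (28), and the 5′ UTR share 0.499% (7) against 0.214% (2), with both intervals of the difference including 0.

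**Figure D2:**
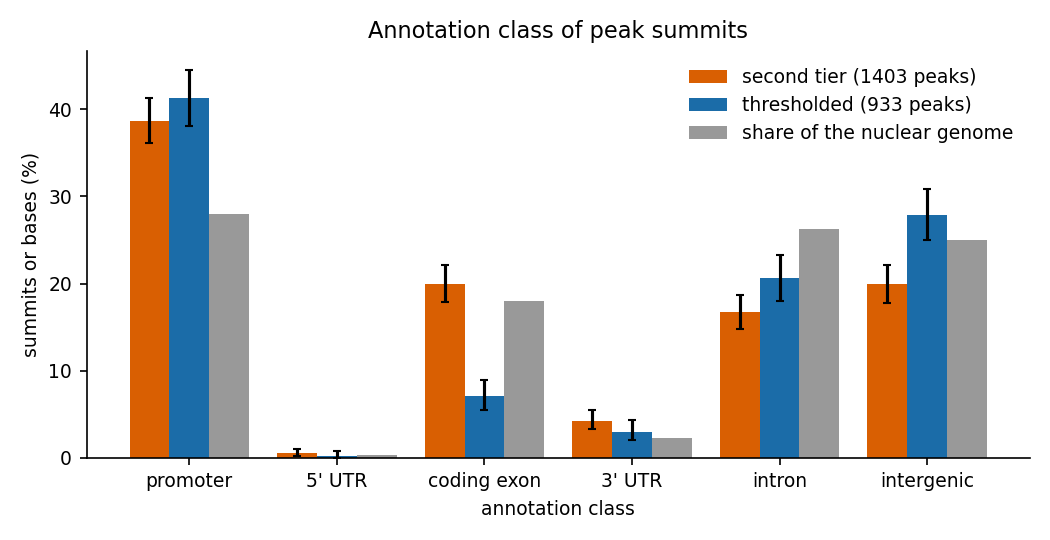
Share of summits (%) in each annotation class for second-tier peaks (orange) and thresholded peaks (blue), with exact 95% intervals as error bars, beside the share of nuclear bases in the class (grey). Coding exons hold 20% of second-tier and 7.07% of thresholded summits, and promoters hold 38.7% and 41.3%.

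From the thresholded list down the bands of the ranked list, the promoter and tRNA shares fell at each step. The second tier lay between the thresholded peaks and the lower bands. The thresholded list leaves out 120 ranked peaks that scored 830 or more, of which 111 were intergenic and 4 in promoters. The fall of the promoter share at the first step thus holds for the thresholded list, not for all ranked peaks of that score. The promoter share was 39.3% in the upper score band of the second tier (507 peaks), 38.4% in its lower band (896 peaks) and 34.6% for scores from 400 up to the second tier, and it reached 28.5% below 100, near the genome share. The coding exon share was 7.07% in thresholded peaks, 17.6% and 21.3% in the upper and lower bands and 20.8% from 400 up to the second tier, so the largest step lay at the threshold. The share of summits within 500 bp of a tRNA start was 18.1% in thresholded peaks, 9.47% and 4.35% in the upper and lower bands of the second tier, and 2.57% below it. The 130 members that passed the conservative threshold held 14 coding exon summits (10.8%, 6.01 to 17.4) and 16 tRNA summits (12.3%, 7.20 to 19.2). The other 1273 members held 20.9% in coding exons (18.7 to 23.2) and 5.58% at tRNA genes (4.38 to 6.98).

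**Figure D3:**
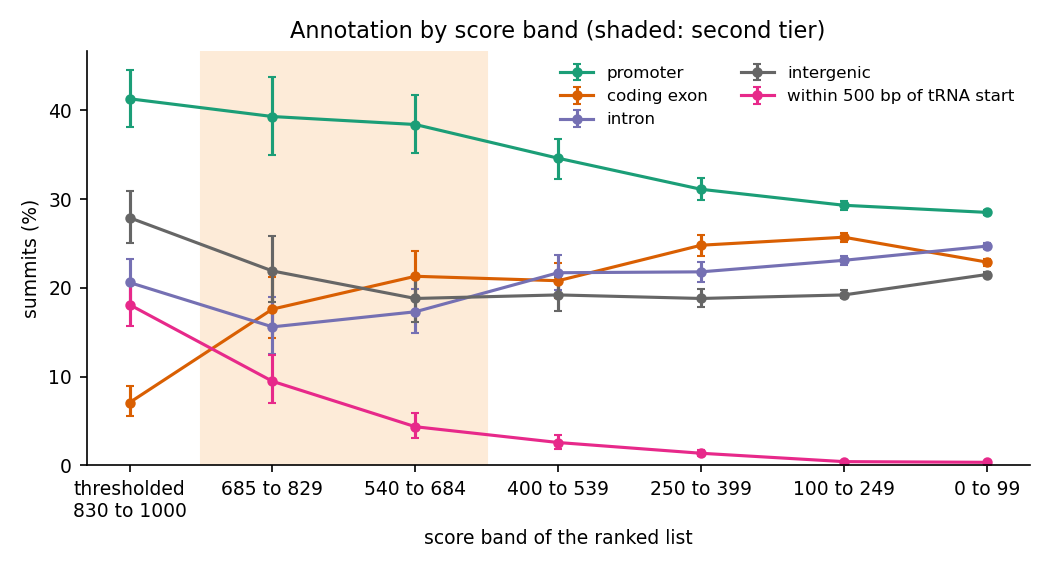
Share of summits (%) in 4 annotation classes and within 500 bp of a tRNA start, by score band of the ranked list from thresholded peaks (left) to scores below 100 (right), with exact 95% intervals; the shaded bands are the second tier. The tRNA share falls from 18.1% to 0.339%, and the coding exon share is lowest in thresholded peaks at 7.07%. The leftmost band leaves out 120 ranked peaks that scored 830 or more but overlapped no thresholded peak.

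Noncoding genes were counted when a summit lay within 500 bp of their start. Over 8 biotypes, 409 of 26797 noncoding genes (1.53%) had a second-tier summit and 552 (2.06%) a thresholded one. Transfer RNA genes were far above that share: 99 of 612 (16.2%) had a second-tier summit, 191 (31.2%) a thresholded summit, and 286 (46.7%) either, with 4 in both. Counted by summit, 87 second-tier peaks (6.20%, interval 5.00 to 7.59) and 169 thresholded peaks (18.1%, 15.7 to 20.7) lay at tRNA genes, which take up 0.533% of the genome at this distance. The difference was -11.9 points (-14.8 to -9.19). When the same score bands were taken from the lists of replicate 1 alone, the tRNA shares were 13.2% and 14.9%, and the difference of -1.65 points had an interval of -6.62 to 3.08 that includes 0. In the lists of replicate 2 alone it was -6.66 points (-12.3 to -1.13).

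Second-tier summits at tRNA genes were close to the start of the gene, as the thresholded ones were. The median distance was 27 bp in the second tier and 22 bp in the thresholded list, and 78 of the 87 second-tier summits lay within 100 bp. The strongest were at Y110A2AL.t1, at the arginine tRNA gene F33D11.t2 (61.5, in an intron of the collagen gene col-54) and at the aspartate tRNA gene F59C12.t2 (57.5, 38 bp downstream of its start, X 16604625 to 16604880). F59C12.t2 had a signal of 21.1 in replicate 1 and 27.1 in replicate 2, and F33D11.t2 had 23.1 and 28.6, so both lay below the second-tier median of the list of replicate 1 and above that of replicate 2. By amino acid, second-tier summits reached 10 of 39 leucine, 10 of 42 proline and 9 of 27 aspartate tRNA genes, but 2 of 39 serine and 1 of 19 tyrosine tRNA genes. tRNA genes are repeated in near-identical copies, and how reads that match several copies were placed is not given in the sources used here, so the assignment to a single copy is uncertain.

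**Figure D4:**
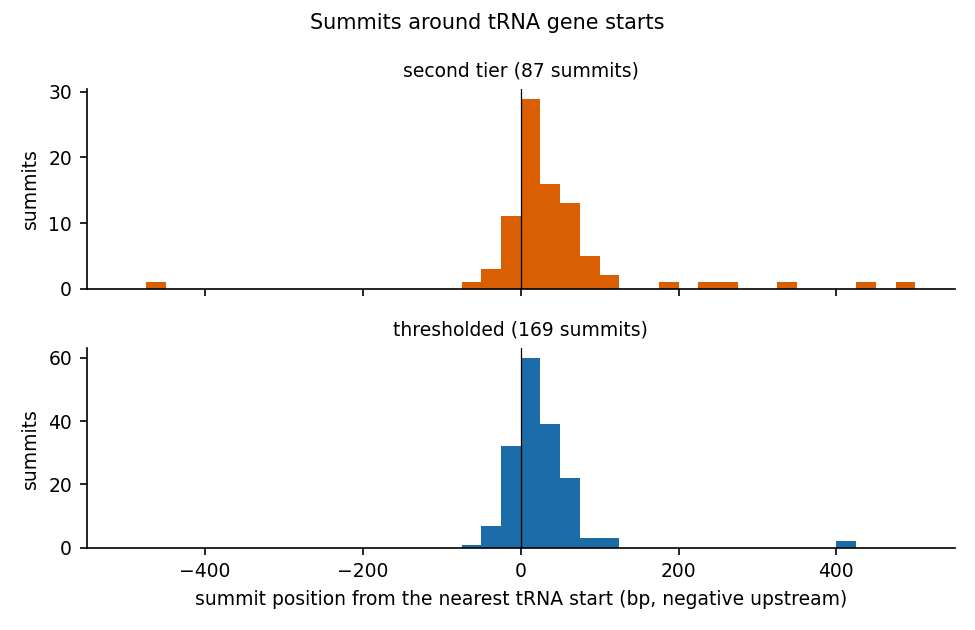
Number of summits by position from the nearest tRNA start (x axis, bp, negative upstream, bins of 25 bp) for 87 second-tier peaks (top) and 169 thresholded peaks (bottom). Both distributions have their highest bin just downstream of the start, with median distances of 27 and 22 bp.

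On the X chromosome 43 of 276 tRNA genes (15.6%) had a second-tier summit, near the 56 of 336 (16.7%) on the autosomes. The thresholded summits reached 107 (38.8%) and 84 (25%). Over all peaks, X held 222 second-tier summits (15.8%) and 187 thresholded summits (20%), with 17.7% of the genome, a difference of -4.22 points (-7.46 to -1.06). In the lists of replicate 2 alone it turned to 3.02 points (-2.92 to 8.80), and in those of replicate 1 alone it was -7.20 points (-12.7 to -1.89). Without summits near tRNA, snoRNA and snRNA genes the shares on X were 14.4% and 13.4%, and the difference of 1.04 points (-2.24 to 4.12) included 0. The arms of the autosomes, 33.3% of their length at either end, held 61.8% of the autosomal second-tier summits and 59.7% of the thresholded ones. Both shares were below the share of autosomal length in the 2 arms together. The difference of 2.16 points (-2.30 to 6.65) included 0.

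Genes of snoRNAs, which guide the modification of ribosomal and other RNAs, held 21 second-tier summits (1.5%) and 55 thresholded summits (5.89%), a difference of -4.40 points (-6.17 to -2.85). By gene, 22 of 346 (6.36%) had a second-tier and 55 (15.9%) a thresholded summit. After T04A8.17, the strongest were at D2096.14 (53.1, in an intron of nap-1) and T19C4.11 (51.7). The D2096.14 peak overlapped no ranked peak of replicate 2. The T19C4.11 summit stood 360 bp downstream of that snoRNA start, in a coding exon of gpa-1, with the start of the ncRNA gene T19C4.17 nearer, at 178 bp. The median distance from the start was 131 bp for second-tier summits at snoRNA genes and 56 bp for thresholded ones. Small nuclear RNA genes, which include those of the spliceosome, held 7 second-tier summits (0.499%) and 15 thresholded summits (1.61%), a difference of -1.11 points (-2.17 to -0.286). In the lists of either replicate alone the interval included 0, at -0.303 points (-2.45 to 1.48) in replicate 1 and -1.21 points (-3.60 to 0.829) in replicate 2. The strongest of the 7 stood at T08G5.11 (55.3, V 14028475 to 14028730), with 30.4 in replicate 1 and 29.0 in replicate 2. Another, at WBGene00235247 (47.0), belongs to a set of snRNA genes that share the name R07E5.16.

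The tiers were closer to each other at microRNA genes, with 10 second-tier summits (0.713%) and 8 thresholded summits (0.857%). Second-tier summits stood 6 bp upstream of cel-mir-5549 (54.5), in a window shared with the promoters of rfc-4 and eef-1A.1, and 217 bp upstream of cel-mir-80 (52.7). Genes of the class ncRNA had 159 second-tier (11.3%) and 209 thresholded (22.4%) summits, with 6.00% of the genome, and 61 of the 159 were also near a tRNA, snoRNA or snRNA gene. Starts of piRNA genes, which cover 4.83% of the genome, held 1.92% of second-tier and 1.93% of thresholded summits. Pseudogene starts held 1.14% and 0.857%, with 2.07% of the genome, and lincRNA starts held 3 summits of each tier. The intervals of the difference included 0 for microRNA, lincRNA, piRNA and pseudogene starts.

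**Figure D5:**
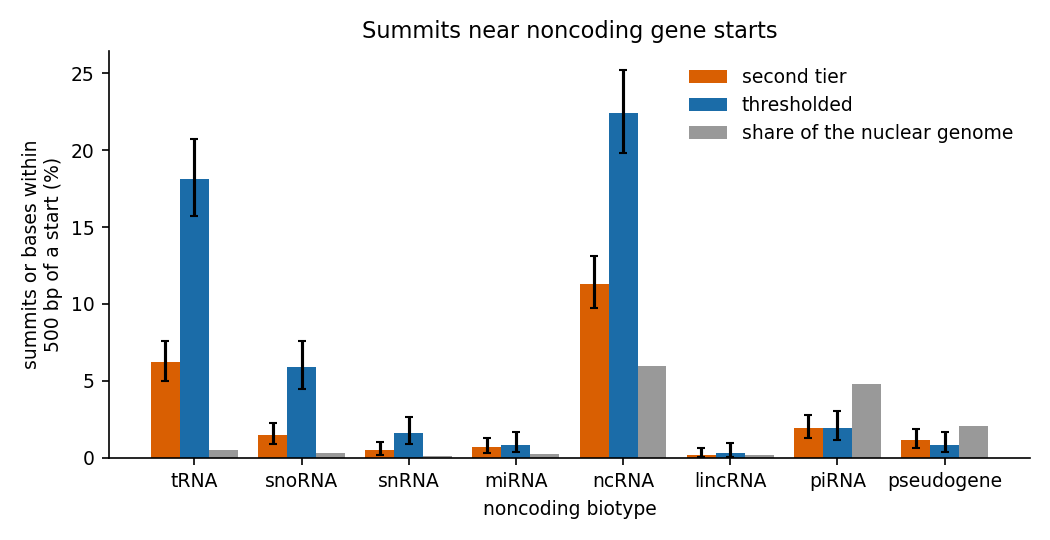
Share of summits (%) within 500 bp of a start of each noncoding biotype for second-tier (orange) and thresholded peaks (blue), with exact 95% intervals, beside the share of nuclear bases at that distance (grey). The tRNA share is 6.20% in the second tier and 18.1% in the thresholded list, and the piRNA shares of 1.92% and 1.93% lie below the genome share of 4.83%.

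Promoter windows of 566 of 19973 protein-coding genes (2.83%) held a second-tier summit, and those of 463 (2.32%) a thresholded summit. Summits of both tiers lay in the windows of 35 genes, which is 6.18% of the second-tier genes, beside the 2.32% of all genes with a thresholded summit, and 7.56% of the thresholded genes, beside 2.83%. The rule had removed peaks that overlap a thresholded peak, which limits this number. Either kind of summit was found at 994 genes. Windows of several genes shared 74 of the 543 promoter summits of the second tier and 92 of the 385 thresholded ones. Second-tier summits stood a median of 180 bp upstream of the nearest start and thresholded ones 242 bp upstream, and 69.2% and 81.3% of them were upstream rather than downstream. A summit in a window does not show that the gene is regulated there.

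Second-tier summits lay at 10 of 82 cytosolic ribosomal protein genes (12.2%, beside 2.83% of all protein-coding genes) and thresholded summits at 17, with rpl-12 in both. The rule applied anew to the list of replicate 1 alone, which gave 484 peaks, found 2 of the 82 genes. In the list of replicate 2 alone, with 428 peaks, it found 6. These counts cover any gene of the list and are not a recovery of the 10. The strongest of the 10 were rps-28 (54.9), rpl-29 (52.9), rps-15 (51.7) and rpl-7 (48.9). Each of these 4 summits lay in the window of a second gene as well. The rps-28 peak (IV 1659111 to 1659366) had 23.7 in replicate 1 and 28.7 in replicate 2, and the rpl-29 peak (IV 13881789 to 13882044) had 33.1 and 19.5. Both lay above the second-tier median of the list of replicate 1, and in that of replicate 2 rps-28 was above and rpl-29 below it. Aminoacyl tRNA synthetase genes, whose products charge tRNAs, had 3 of 32 in the second tier and 1 in the thresholded list: kars-1 (47.5), qars-1 (45.7) and cars-1 (39.3) are the enzymes for lysine, glutamine and cysteine. Of 44 translation factor genes 2 had a second-tier summit, eef-1A.1 (54.5), an elongation factor, and eif-3.C (39.8), an initiation factor subunit, and 5 had a thresholded one.

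The next lists stand beside 2.83% of all protein-coding genes in the second tier and 2.32% in the thresholded list. Chaperone genes had 4 of 68 (5.88%) in the second tier and 10 in the thresholded list. The second-tier members were the J-domain gene dnj-20 (42.8), the chaperonin subunit gene cct-7 (42.3), the small heat shock gene hsp-12.2 (34.9) and hsp-90 (34.2), and hsp-90 also had a thresholded summit. The hsp-12.2 peak overlapped no ranked peak of replicate 1, and the cct-7 peak none of replicate 2. The respiratory chain and ATP synthase had 4 of 53 (7.55%) and 9. The 4 were sdha-1 (50.7), a subunit of succinate dehydrogenase, the ATP synthase genes asg-2 (47.2) and atp-5 (46.0), and cyc-1 (44.5), which encodes cytochrome c1. The asg-2 peak overlapped no ranked peak of replicate 2. The sdha-1 summit stood 32 bp downstream of the start of the snoRNA gene D2021.6, so the peak cannot be assigned to either gene. Of 33 proteasome genes 0 had a second-tier and 2 a thresholded summit, but 4 had a second-tier summit in the conservative lists and 5 with promoter windows of 2000 to 500 bp. Of 58 genes in the splicing factor list 2 had a second-tier summit (uaf-1, 44.8, and rnp-8, 37.7) and 5 a thresholded one. The list was matched by gene name, and a role of rnp-8 in splicing was not checked.

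Chromatin genes were counted in 3 lists, beside the 2.83% of all protein-coding genes. Of 24 genes of the DREAM complex and the synMuv class, which repress cell cycle and germline genes, 4 (16.7%) had a second-tier summit and 4 a thresholded one. They were lin-56 (46.0), lin-9 (45.7), lin-52 (45.5) and mep-1 (28.8), and lin-52 had both kinds. The rule applied anew to the list of replicate 1 alone gave 1 of the 24 genes, and to that of replicate 2 alone 3. These counts cover any gene of the list and are not a recovery of the 4 named genes. The lin-9 peak had a signal of 30.4 in replicate 1 and 19.6 in replicate 2, and the lin-52 peak had 32.8 and 33.3. The mep-1 peak overlapped no ranked peak of replicate 1 and had 14.1 in replicate 2. Of 83 genes of histone-modifying enzymes 4 (4.82%) were in the second tier, namely set-26 (52), hda-10 (47.9), lin-59 (37.6) and prmt-7 (34.1), and 5 in the thresholded list. Histone genes had 5 of 72 (6.94%) in the second tier (his-60, his-42, his-68, his-59 and his-58, with signals of 37.4 to 46.5) and 2 in the thresholded list. Histone genes occur in near-identical copies, so these are uncertain as to the copy.

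Nuclear hormone receptor genes, a family of ligand-regulated transcription factors that is expanded in nematodes, had 8 of 269 (2.97%), beside the 2.83% of all genes, and 4 in the thresholded list. The strongest were nhr-35 (50.3), nhr-142 (47.7), nhr-2 (44.3) and nhr-41 (43.8). Cuticle collagen genes had 4 of 174 (2.30%) and 1: dpy-17 (49.0), col-110 (43.2), col-140 (43.1) and col-38 (41.5), the last in a window shared with rpl-5. No ranked peak of replicate 1 overlapped the dpy-17 peak, and none of replicate 2 the col-140 peak. C-type lectin genes had 4 of 240 (1.67%) and 1, and clec-83 and clec-84 shared a summit. The clec-126 summit (54.5) stood 34 bp from the tRNA gene W09G10.t3. Chemoreceptor genes had 3 of 1287 (0.233%) and 8, with srh-2 (57.1) in a window shared with icl-1, and of 86 homeobox and GATA factor genes 1 had a second-tier summit (ceh-99, 39.7) and 4 a thresholded one.

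Among tissue marker lists, 4 of 28 intestine genes (14.3%) had a second-tier summit: fat-6 (46.4), a fatty acid desaturase, the cathepsin B family genes cpr-4 (45.9) and cpr-6 (37.3), and the intestinal actin gene act-5 (35.5). Another count of 4 was found in the thresholded list, with fat-6 in both. Of all protein-coding genes 2.83% had a second-tier and 2.32% a thresholded summit. With the rule applied anew, the second-tier count of the 28 intestine genes was 1 in the conservative lists. It was 0 in the list of replicate 1 alone and 3 in that of replicate 2 alone. These counts cover any gene of the list and are not a recovery of the 4 named genes. In the upper score band the count was 0. Of 30 body wall muscle genes 2 had a second-tier summit, hlh-1 (41.9), the MyoD family factor, and lev-11 (37.8), a tropomyosin, and 0 a thresholded one, and in the lists of either replicate alone the second-tier count was 0. None of the 25 pan-neuronal or 43 germline genes had a summit of either tier, and of 35 hypodermis genes 0 and 1. The counts were also 0 in the second tier for 20 genes of RNA polymerase III and its factors, for 7 genes of vitellogenins and yolk uptake, and for 44 major sperm protein genes, with 1, 2 and 0 in the thresholded list. At the shares of all genes, lists of these sizes would hold few or no genes, so counts of 0 do not show a lack. The animals were whole larvae, so a peak cannot be placed in a tissue.

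Counted over whole gene bodies, 796 genes held a second-tier summit and 102 held at least 2. Genes with the most were picked after their counts were seen. The genes ncl-1 (18377 bp long), which limits the size of the nucleolus, and vhp-1 (17554 bp), a phosphatase of MAP kinases, held 6 each. The gene acs-19, 2610 bp long, held 4, with signals of 42.1 to 58.3, 3 of them in coding exons and 0 thresholded peaks. The thresholded peak of highest signal (302, III 3867489 to 3867642) lay just outside this gene, which ends at 3867098. Its summit was 1873 bp from the strongest of the 4. The kinase gene mnk-1 held 4 beside 8 thresholded peaks, and pck-2, a phosphoenolpyruvate carboxykinase gene, 4 beside 3. The yolk protein gene vit-2 held 3 (24.4 to 37.8), all in coding exons, beside 1 thresholded peak. The tagged gene Y75B8A.6 (III 12122738 to 12130343) held no second-tier peak within 2000 bp, and the best of 20 ranked peaks there scored 385.

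Most second-tier peaks were far from thresholded peaks. The median distance to the nearest thresholded summit was 25579 bp, against 19724 bp from one thresholded summit to the next. Within 1000 bp lay 103 second-tier summits (7.34%) and 13.3% of the thresholded ones, and within 5000 bp 24.3% and 34.7%. The shortest distance, 208 bp, is bounded by the rule, which removed overlapping peaks. Of the 103, 25 lay in coding exons.

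Second-tier summits lay in DNA richer in G and C than their surroundings. The median GC content of the window at the summit was 44.6%, against 35.6% at 300 bp to the right and 34.7% over all windows of the genome. The GC content was higher at the summit than at the flank in 1035 members and lower in 335. Thresholded summits had a median of 47.5%. By class, the medians of second-tier summits were 46.5% in coding exons, 44.6% in promoters, 43.6% in intergenic DNA and 42.6% in introns, so each of these classes was above the genome median. GC content also affects amplification and sequencing, and its part in the result was not tested.

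Short words were searched on both strands of the same windows. GGTTCGA, which matches the internal control element (B box) of tRNA genes, was in 37 second-tier windows (2.64%), 9.75% of thresholded windows and 0.725% of genome windows. Without the summits near tRNA, snoRNA and snRNA genes it was in 0.853% of second-tier windows (interval 0.426 to 1.52). TGGCNNAGT, which matches the other internal element (A box), was in 1.92%, 5.47% and 0.927%. Without the same small RNA summits TGGCNNAGT was still in 1.55% of second-tier and 4.03% of thresholded windows. Of the 27 second-tier windows with TGGCNNAGT, 20 were thus not near these genes, so this word did not mark tRNA genes alone. The TATA word TATAAA was in 5.56% and 6.00% of second-tier and thresholded windows against 11.2% of the AT-rich genome windows, and the GATA factor word GATAAG in 6.27% and 5.68% against 3.69%.

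The 3 words in capitals above had the largest excess at second-tier summits over the flank among all 6-base words, and were picked for it. ACCACT was in 7.20% of second-tier windows and 2.57% of flanks, in 13.4% of thresholded windows and in 3.22% of genome windows. Without small RNA summits it was in 4.96% and 5.32%. CACACA was in 8.55% of second-tier and 8.57% of thresholded windows against 4.27% of the genome, and GAGAGA in 11.0% and 14.5% against 5.18%. The words overlap in part with others of the same kind, such as AGAGAG, and a match is a description of the letters and not a binding site. In coding exon summits of the second tier the same 3 words were in 3.57%, 3.93% and 6.07%, with intervals that included the genome shares.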

How the data were processed

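Peak lists of the authors for 2 biological replicates were used. Per the labels the build was ce11; aligner and caller: not given in the sources used here. Scores per peak (transformed IDR), signals of peaks and of their paired peaks (scale not stated) and −log10 values of the global IDR are as deposited by the authors; the score equalled the transformed global IDR to within 1. Per the file descriptions, lists derive from alignments and an input file. What the paired peaks of the ranked list are is not stated. Read totals are not in the lists, so depth is unknown.

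Second-tier peaks were taken by score and overlap, and summits annotated with Ensembl release 115 (WBcel235), tRNA names and products from RefSeq (607 of 612 matched). A promoter call took precedence over UTRs and coding exons, and these over introns. Shares have exact Clopper-Pearson 95% intervals and differences Newcombe intervals, which cover counting error only. No test was run, as there is 1 group. Members, lists and motifs were chosen with earlier results of these data known. Genes were named by rule: the 20 strongest members, up to 4 of each list with at least 3 hits, up to 3 of each biotype, the peaks at both edges, and Y75B8A.6; members of shorter lists were added after their values were seen. In total 13 alternatives were planned and others added later. The counting was checked on simulated summits. Tools were scipy 1.17.1, pandas 2.3.3, numpy 2.4.6 and matplotlib 3.10.9 under Python 3.11.15.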

Additional observations from a re-analysis of the deposited data

Results flagged for a closer look

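Signal was found in ranked peaks that the comparisons did not use. In the ranked list 120 peaks scored 830 or more but overlapped no thresholded peak, with signals of 11.9 to 2355 and a median of 95.6. Their summits were intergenic in 111 and in promoters in 4, and the strongest stood at X 15810952 to 15811191. Of the second-tier summits 10 lay within 1000 bp of such a peak. The deposited descriptions name an additional source file for the thresholded lists without saying what it does, and its part was not tested.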

How the results depend on the processing

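The coding exon difference and the snoRNA difference kept their direction, with intervals excluding 0, under every alternative run: over 14 alternatives the former ran from 5.51 to 20.5 points. Leaving out replicates 1 and 2 in turn (each replicate's own lists) gave 428 to 484 second-tier peaks, 180 to 204 genes, promoter differences of -5.05 to 0.749 points, intron differences of 0.487 to 1.52, intergenic differences of -6.96 to -4.96, tRNA differences of -6.66 to -1.65, X differences of -7.20 to 3.02 and microRNA differences of -1.22 to 0.450.

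The upper and lower score bands held 507 and 896 peaks with 225 and 357 genes, and peaks at or above the median signal 702 with 329 genes. Promoter windows of 500 to 100 bp and 2000 to 500 bp gave 334 and 925 genes, promoter differences of -4.20 (excluding 0) and 0.574 points, and intron differences of -2.88 and -2.57, both including 0. The promoter difference also excluded 0 at -6.37 in the conservative lists and at -5.41 without tRNA, snoRNA and snRNA summits. The intron difference also included 0 in the conservative lists (-0.331), in the lower score band (-3.28), above the median signal (-3.75) and without small RNA summits (-0.291).

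The X difference, -4.22 with an interval excluding 0, turned to 3.02 without replicate 1 and to 1.04 without small RNA summits, and its interval included 0 in the conservative lists (-2.66) and the upper score band (-3.08). Differences whose interval included 0 changed sign: microRNA gave 0.141 (above the median signal) and 0.106 (noncoding distance 200 bp), piRNA 0.0797 (lower score band), 0.0693 (merged) and 0.0720 (peaks below their paired signal left out), and pseudogene -0.00417 (conservative), -0.359 (above the median signal) and -0.287 (200 bp). The cause was not tested. Counts of second-tier genes in the gene lists moved by over 1.5 times in 84 cases, and several settings hold fewer peaks. Settings chosen after seeing the data left out peaks below their paired signal, or promoter summits. No paired analysis was possible because the design has 1 group.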
